A study of Mus musculus with 8 samples.

Results

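The comparison described here set 2 libraries of enhancer-null clone 1 against 4 wild-type (WT) libraries of mouse anterior neural progenitor cells (AntNPC). Its members were all genes with a mean of at least 1 FPKM (fragments scaled by transcript length and by the library's mapped fragments) over these 6 of the 8 libraries of the series, which gave 14520 of 46406 gene identifiers. WT cells were E14 embryonic stem cells without an edit. Clone 1 carried the genotype PE Lhx5(-109)-/-, a CRISPR-Cas9 deletion of a poised enhancer named for the Lhx5 gene, made with a pair of guide RNAs in E14 cells that were then selected with puromycin and grown out from single cells. Both groups were differentiated in the same way, in N2B27 medium with 10 ng/ml bFgf until day 3 and 5 µM of the WNT inhibitor Xav939 from day 2 to day 5. Clone 2, a second line with the same genotype and 2 libraries, shared the estimate of the spread and is named only where values are set side by side. The design text calls the libraries of each group biological replicates. Clone 1 is a single clonal line, and no label gives an unedited subclone, so an effect of the deletion and a property acquired while the line was derived cannot be told apart, and the p-values measure only the spread between these libraries.

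Poised enhancers are regulatory elements that carry Polycomb marks in embryonic stem cells and turn on their target genes once the cells become neural. Embryonic stem cells and epiblast cells are epithelial cells held together by E-cadherin and claudins, and during neural induction they lose these proteins, switch to N-cadherin and shut off pluripotency factors such as Oct4. The transcription factor p53 is active at a low level in cultured stem cells, where it drives genes of cell cycle arrest, apoptosis and DNA repair.

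Each library's FPKM values added up to 518491 to 528726. Read totals per library were not analysed here, and the steps between low FPKM values put the relative depths of the 6 libraries at 0.987 to 1.20 of WT replicate 1. Forebrain and neural progenitor markers were present in all 6 libraries. Sox2 stood at 124 and 138 FPKM in clone 1 and at 129 to 140 in WT. Otx2 stood at 199 and 222 in clone 1 and at 196 to 220 in WT. Six3, at 17.4 and 14.1 in clone 1 and at 13.2 to 21.9 in WT, also overlapped. Lhx2, Sox1, Nes and Pax6 were lower in both clone 1 libraries than in any WT library. Lhx2 was at 5.84 and 6.49 in clone 1 against 10.2 to 12.3 in WT, and Pax6 at 32.1 and 30.3 against 36.2 to 39.8. Clone 1 replicate 2 carried more RNA without a poly(A) tail than any other library: small structured RNAs made up 3.38% of its FPKM, against 0.920% in clone 1 replicate 1 and 0.924% to 1.24% in WT. WT replicate 2 lay closer to clone 1 than the other WT libraries did. It was the highest WT library in 76.2% of the genes called higher in clone 1, against 37.5% of all genes tested, and the lowest in 61.1% of the genes called lower, against 25.4%. On the log2 scale it lay a median of 36.0% of the way from the other WT libraries to clone 1 in the genes called higher, and 20.7% in those called lower.

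Lhx5, the LIM homeobox gene that the deleted element is named for, was at a far lower level in clone 1. Lhx5 (ENSMUSG00000029595, GRCm38 chromosome 5, 120431699 to 120441223, plus strand) stood at 16.9, 17.5, 16.2 and 15.0 FPKM in WT and at 1.24 and 0.854 FPKM in clone 1, which was 6.38% of the WT mean. Both clone 1 libraries lay far below all WT libraries. The log2 fold change, on the log2(FPKM + 1) scale used throughout, was -3.09 ± 0.12 (SE), with an adjusted p of 3.44e-06 by limma with Benjamini-Hochberg adjustment over all 14520 genes. An exact two-sided permutation test on the 6 FPKM values gave p = 0.133, the smallest that 2 against 4 libraries allow.

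At an adjusted p under 0.05, 623 genes were higher in clone 1 (4.29% of those tested) and 1654 were lower (11.4%), together 15.7%. An unadjusted p under 0.05 was reached by 4708 genes. Most changes were small: the median absolute log2 fold change of the called genes was 0.33, and 52 higher and 34 lower genes changed at least 2-fold on this scale. The median log2 fold change of all genes was -0.05. When the libraries were rescaled by the median of ratios, that median became 0.0038 and the split became 976 higher (6.72%) and 975 lower (6.71%), so the share of higher calls moved from 27.4% to 50.0%. Scaling to the protein-coding genes gave 810 higher (5.58%) and 1223 lower (8.42%). Of the calls made without rescaling, 618 higher and 975 lower genes were also called with it. In the absence of clone 1 replicate 2, the calls were 192 higher (1.32%) and 283 lower (1.95%), of which 145 and 278 were among those first called, and without clone 1 replicate 1 there were 475 higher (3.27%) and 2661 lower (18.3%). Without WT replicate 2 there were 887 higher (6.11%) and 1671 lower (11.5%). Leaving out WT replicate 1, 3 or 4 gave 306, 282 or 287 higher and 837, 763 or 751 lower genes. The 2 clone 1 libraries lay above all 4 WT libraries in 12.3% of genes and below all 4 in 29% of them. Below, a gene is said to rise or fall only if it passed the threshold with all libraries. List counts are to be read against the shares of all genes, 4.29% higher and 11.4% lower. A list near these shares does not stand out from all genes.

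Genes of epithelial cell junctions rose in clone 1. Of 40 such genes 30 were tested: 16 rose, 1 fell, and the median log2 fold change was 0.54. Cdh1 (ENSMUSG00000000303, chromosome 8, 106603351 to 106670246, plus strand) encodes E-cadherin, the adhesion protein of adherens junctions. It stood at 6.39, 9.90, 5.87 and 7.40 FPKM in WT and at 24.6 and 19.8 FPKM in clone 1. The groups did not overlap, and WT replicate 2 was the highest WT library. The means were 7.39 ± 1.79 (SD, n = 4) and 22.2 ± 3.39 (SD, n = 2), a 3.0-fold difference with a log2 fold change of 1.48 ± 0.19 (SE, limma adjusted p = 0.00562).

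Claudins, the sealing proteins of tight junctions, rose with it. Cldn3 stood at 2.56, 5.6, 2.11 and 2.80 FPKM in WT and at 15.8 and 14.2 in clone 1 (log2 fold change 1.97 ± 0.29, limma adjusted p = 0.0102, and 0.0573 without clone 1 replicate 2). Cldn7 stood at 1.41, 2.73, 1.39 and 1.60 in WT and at 7.80 and 6.61 in clone 1 (1.58 ± 0.18, limma adjusted p = 0.00314). Cldn6, a claudin of the embryonic epiblast, stood at 2.62, 3.88, 2.32 and 2.97 in WT and at 9.73 and 8.98 in clone 1 (1.41 ± 0.15, limma adjusted p = 0.00273). In all 3 claudins the clone 1 libraries lay above every WT library and WT replicate 2 was the nearest to them. Cldn4 rose by 0.65 on the log2 scale, and Cldn9, at 0.901 and 0.864 FPKM in clone 1 against 1.25 to 2.11 in WT, was the member that fell, by 0.52.

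Other epithelial genes moved the same way. Epcam, an adhesion molecule of stem cells and epithelia, stood at 3.33, 6.15, 3.48 and 4.49 FPKM in WT and at 14.0 and 11.8 in clone 1 (log2 fold change 1.40 ± 0.22, limma adjusted p = 0.0107, and 0.0568 without clone 1 replicate 2). Esrp1, which directs epithelial splicing, was at 1.05 to 2.67 FPKM in WT and at 6.75 and 4.57 in clone 1 (1.38 ± 0.23, limma adjusted p = 0.0111). St14, the membrane protease matriptase, was at 1.36 to 2.41 FPKM in WT and at 6.19 and 5.43 in clone 1 (1.29 ± 0.14, limma adjusted p = 0.00273), and its activator Prss8 and inhibitor Spint2 rose by 0.67 and 0.74. Crb3, a polarity protein, was at 1.06 to 2.79 FPKM in WT and at 5.57 and 4.49 in clone 1 (1.23 ± 0.24, limma adjusted p = 0.0166). Its adjusted p was 0.0736 without clone 1 replicate 2 and 0.0565 without replicate 1. The trafficking genes Rab25 and Ap1m2 and the junction genes F11r, Jup and Marveld2 also rose, by 0.52 to 1.21. The scaffold gene Tjp1, at 40.3 to 45.7 FPKM over the 6 libraries, had a log2 fold change of -0.06 and did not pass the threshold. The list's calls were 8 higher and 0 lower without clone 1 replicate 2, 11 and 0 without replicate 1, and 18 and 1 without WT replicate 2.

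**Figure D1:**
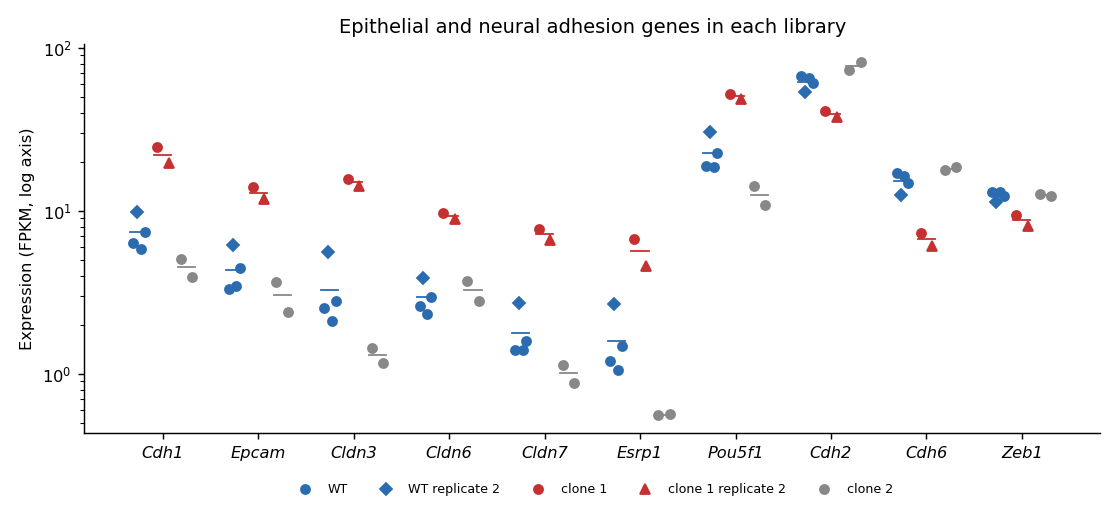
FPKM (log axis) of epithelial genes, Pou5f1 and neural adhesion genes in each library, as points, with the mean of each group as a line; blue is WT, red clone 1 and grey clone 2. Cdh1 was at 24.6 and 19.8 FPKM in clone 1 and at most 9.90 in WT, whereas Cdh6 was at 7.35 and 6.08 in clone 1 and at least 12.6 in WT.

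Because these genes rose together, their promoters were searched for the letters CACCTG on either strand, the core of the E-box that ZEB and SNAIL repressors of epithelial genes recognise. The search covered the 250 bases before each start in RefSeq's GRCm38.p6 promoters. RefSeq promoters matched 12 of the 16 genes that rose, with 15 promoters, of which 10 (66.67%) held the letters. Of the 30 promoters of all tested members, 17 (56.67%) held them, against 17.22% of all 32851 promoters in the table and 15.3% of those of tested genes. Windows of 1 gene can overlap, and a match is not evidence of binding. The promoters of Epcam, Cldn6, Crb3 and Spint2 are shown because they hold 1 to 3 matches each, and that of Cldn3 because it holds none although Cldn3 rose most. They are written 5′ to 3′ on the gene's strand and end at the base before the start, with CACCTG or its reverse complement CAGGTG in capitals.
Epcam, chr17:87635729-87635978, plus strand: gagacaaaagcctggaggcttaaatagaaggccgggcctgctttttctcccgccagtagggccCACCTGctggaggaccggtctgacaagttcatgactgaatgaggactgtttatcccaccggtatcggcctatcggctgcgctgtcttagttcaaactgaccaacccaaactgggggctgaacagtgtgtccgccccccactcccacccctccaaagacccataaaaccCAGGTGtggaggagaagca
Cldn6, chr17:23679115-23679364, plus strand: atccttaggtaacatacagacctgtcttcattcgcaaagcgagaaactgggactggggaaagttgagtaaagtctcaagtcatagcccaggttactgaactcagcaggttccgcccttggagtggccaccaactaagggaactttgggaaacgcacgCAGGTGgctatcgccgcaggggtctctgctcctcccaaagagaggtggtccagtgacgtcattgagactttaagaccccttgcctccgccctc
Crb3, chr17:57061951-57062200, plus strand: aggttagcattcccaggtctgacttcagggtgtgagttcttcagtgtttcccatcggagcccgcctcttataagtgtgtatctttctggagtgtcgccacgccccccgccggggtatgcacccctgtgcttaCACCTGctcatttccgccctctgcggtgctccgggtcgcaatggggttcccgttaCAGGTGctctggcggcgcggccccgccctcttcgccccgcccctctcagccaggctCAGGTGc
Spint2, chr7:29281978-29282227, minus strand: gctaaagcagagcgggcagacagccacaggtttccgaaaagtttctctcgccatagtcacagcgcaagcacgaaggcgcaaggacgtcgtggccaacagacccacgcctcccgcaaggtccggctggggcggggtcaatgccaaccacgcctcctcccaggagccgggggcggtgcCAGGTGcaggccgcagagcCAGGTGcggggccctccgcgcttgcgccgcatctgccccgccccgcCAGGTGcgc
Cldn3, chr5:134985964-134986213, plus strand: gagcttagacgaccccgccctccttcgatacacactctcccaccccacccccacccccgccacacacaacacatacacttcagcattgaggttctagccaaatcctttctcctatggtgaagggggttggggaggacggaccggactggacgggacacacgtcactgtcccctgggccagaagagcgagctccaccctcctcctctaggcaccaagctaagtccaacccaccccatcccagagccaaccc

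Genes of neural and mesenchymal adhesion changed less and mostly downward. Of 18 tested, 6 fell and 1 rose around a median of -0.12. Cdh6, a cadherin of the neural tube, was at 17.0, 12.6, 16.4 and 14.9 FPKM in WT and at 7.35 and 6.08 in clone 1 (log2 fold change -1.07 ± 0.12, limma adjusted p = 0.00273). Cdh2, which encodes N-cadherin, was at 67.0, 53.7, 65.1 and 61.3 FPKM in WT and at 41.3 and 37.5 in clone 1 (-0.63 ± 0.09, limma adjusted p = 0.00594, and 0.061 without clone 1 replicate 2). In both cadherins every clone 1 library was below every WT library, with WT replicate 2 the nearest. Zeb1, a repressor of Cdh1, was at 11.4 to 13.1 FPKM in WT and at 9.51 and 8.14 in clone 1 (-0.46 ± 0.08, limma adjusted p = 0.00987, and 0.0655 without clone 1 replicate 2). Fn1, the matrix protein fibronectin, fell by 0.57, and Nrcam and Cdh11 also fell. Twist1, a factor of mesenchyme and neural crest, was the member that rose, by 0.56. The calls were 1 higher and 1 lower without clone 1 replicate 2, and 0 and 8 without replicate 1.

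Part of the pluripotency programme was also higher. Among 7 tested naive pluripotency genes, limma called 2 higher and 0 lower (3 and 0 at an unadjusted p under 0.05), and the median was 0.25. Pou5f1, which encodes Oct4, was at 18.8, 30.4, 18.7 and 22.5 FPKM in WT and at 52.4 and 48.5 in clone 1 (log2 fold change 1.15 ± 0.21, limma adjusted p = 0.0199). Nanog was at 4.05, 5.57, 3.42 and 4.51 FPKM in WT and at 8.71 and 7.48 in clone 1 (0.77 ± 0.15, limma adjusted p = 0.016). The clone 1 values of both genes lay above all WT values, and neither passed the threshold without either clone 1 library (limma adjusted p of 0.0939 and 0.0582 for Pou5f1, 0.0726 and 0.0629 for Nanog, without replicate 2 and replicate 1). Zfp42, known as Rex1, was at 0.887 and 1.12 FPKM in clone 1 and at 1.08 to 1.37 in WT, and Dppa5a was at 6.61 and 6.56 against 5.09 to 7.26, so their groups overlapped.

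Among 14 tested genes of the epiblast, the tissue that precedes neural cells, 5 rose and 2 fell around a median of 0.10, and without clone 1 replicate 2 the counts were 3 and 1. Dnmt3b, the de novo DNA methyltransferase of the epiblast, was at 73.1, 81.1, 70.5 and 76.5 FPKM in WT and at 117 and 104 in clone 1 (log2 fold change 0.54 ± 0.07, limma adjusted p = 0.00364). The groups were well apart. Fgf5, an epiblast growth factor, was at 1.37 to 2.90 FPKM in WT and at 5.23 and 4.39 in clone 1, and Dppa4, a chromatin factor, was at 2.39 to 2.98 in WT and at 7.10 and 5.68 in clone 1. Their log2 fold changes were 1.00 ± 0.18 and 1.02 ± 0.14 (limma adjusted p = 0.0115 and 0.00416). L1td1 and Utf1 rose by 0.86 and 0.55, and Sox3 and Sall2 fell by 0.30 and 0.27. Of 16 tested genes of DNA methylation 2 rose and 2 fell, around a median of -0.04. Over all genes 4.29% rose and 11.4% fell, so the share that fell was close to that of all genes. Dnmt3b and its partner Dnmt3l (by 0.51) rose, and the maintenance genes Uhrf1 (by 0.17) and Dnmt1 (by 0.19) fell. When clone 1 replicate 2 was left out, 1 rose and 0 fell. Only 2 of 23 germline and early embryonic genes were tested, and Sycp3, a protein of the meiotic chromosome axis, rose from 2.45 to 3.95 FPKM in WT to 9.12 and 7.65 in clone 1 (1.24 ± 0.14, limma adjusted p = 0.00308).

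Markers of other cells were examined because undifferentiated or non-neural cells could contribute such transcripts. The 9 markers of undifferentiated stem cells summed to 30.5 to 47.2 FPKM in WT and to 64.8 and 69.7 in clone 1. Pou5f1 made up most of each sum, at 52.4 and 48.5 FPKM in clone 1 and at 18.7 to 30.4 in WT. Of the 9 markers, 4 were tested and 2 rose, Pou5f1 and Nanog. No other marker of this list had both clone 1 libraries above all WT libraries. Tdh was at 0.452 and 0.416 FPKM in clone 1 against 0.902 to 1.21 in WT, and both clone 1 libraries list Tcl1 at 0. The naive genes Esrrb, at 0.241 and 0.192 FPKM in clone 1 against 0.391 to 0.643 in WT, and Klf4, at 0.215 and 0.361 against 0.352 to 0.711, stayed below 1 FPKM. In bulk RNA a larger number of cells of a type and more RNA per cell cannot be told apart, and the part of such cells in these results was not tested. Of 14 endoderm markers 3 were tested, and Hhex rose and Cxcr4 fell. Trh, at 11.5 and 8.14 FPKM in clone 1 against 4.09 to 6.08 in WT, lay above all WT libraries but did not pass the threshold. The 14 markers summed to 40.4 to 45.1 FPKM in clone 1 and 48.8 to 52.3 in WT. Cxcr4 made up most of each sum, at 28.3 and 27.6 FPKM in clone 1 and at 40.5 to 44.3 in WT. Afp, Sox17 and Ttr were below 0.1 FPKM in every one of the 6 libraries. Of the 15 surface ectoderm markers 1 was tested, and 0 passed the limma threshold or an unadjusted p under 0.05. The epidermal genes Krt5, Krt14, Krt17 and Trp63 were below 0.1 FPKM in all 6 libraries. Cdh3 was at 1.32 and 0.903 FPKM in clone 1 against 0.35 to 0.643 in WT. Dlx5 was at 0.642 and 0.626 in clone 1 against 0.261 to 0.349 in WT. Tfap2a was also above all WT libraries in both clone 1 libraries, whereas Gata3 and Tfap2c were below them. All 15 surface ectoderm markers summed to 12.6 to 13.5 FPKM in clone 1 and to 9.10 to 12.6 in WT. None of 16 mesoderm markers in the table and none of 14 endothelial and blood markers reached 1 FPKM on average. The mesoderm markers summed to 3.49 to 3.80 FPKM in clone 1 and to 2.14 to 3.22 in WT, without overlap. Among them Eomes was at 0.975 and 0.867 in clone 1 against 0.295 to 0.562 in WT, whereas Kdr was below all WT libraries. The endothelial and blood markers summed to 2.04 to 2.62 FPKM in clone 1 and to 1.80 to 2.55 in WT. Of 14 trophoblast and visceral endoderm markers 3 were tested, and 0 passed either threshold. The 14 markers summed to 89.4 to 102 FPKM in clone 1 and 93.6 to 106 in WT. Sparc made up most of each sum, at 66.3 and 59.4 FPKM in clone 1 and at 61.5 to 71.8 in WT. Of 9 tested neural crest genes 3 rose, Ets1, Twist1 and Msx1, and 1 fell, with a summed level of 32.0 to 37.0 FPKM in clone 1 and 30.0 to 31.9 in WT. In the fit lacking clone 1 replicate 2, 0 neural crest markers passed, and 0 undifferentiated ones. Of 6 tested glial genes 1 rose, Aldh1l1, and 3 fell, among them Pdgfra and Mbp, with 20.1 to 22.3 FPKM in clone 1 and 26.4 to 28.4 in WT.

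Targets of p53 were the list with the highest share of rising members. Among 34 tested genes limma called 22 higher and 0 lower (23 and 0 at an unadjusted p under 0.05), and the median log2 fold change was 0.42. Plk2, a kinase induced by p53, was at 5.26, 7.60, 5.62 and 6.32 FPKM in WT and at 17.5 and 14.2 in clone 1 (log2 fold change 1.23 ± 0.13, limma adjusted p = 0.00265). Cdkn1a, which encodes the cell cycle inhibitor p21, was at 26.9, 41.7, 29.2 and 31.6 FPKM in WT and at 72.0 and 60.5 in clone 1 (1.03 ± 0.18, limma adjusted p = 0.0168). Its adjusted p was 0.0681 without clone 1 replicate 2 and 0.0523 without replicate 1. Neither gene's groups overlapped, and WT replicate 2 was the WT library nearest to clone 1 in both.

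The members spanned the known branches of the p53 response. Among genes of apoptosis, Bbc3, which encodes PUMA, was at 24.7 to 34.4 FPKM in WT and at 46.2 and 42.8 in clone 1 (log2 fold change 0.65 ± 0.12), and the death receptor Tnfrsf10b and the adaptors Apaf1 and Pidd1 rose by 0.63, 0.35 and 0.42. Among growth regulators, Btg2 was at 33.3 to 39.7 FPKM in WT and at 55.3 and 49.8 in clone 1 (0.57 ± 0.08), and Trp53inp1 was at 51.7 to 63.0 and at 102 and 79.4 (0.69 ± 0.12). Among feedback regulators, Mdm2, the ubiquitin ligase of p53, was at 32.0 to 33.9 FPKM in WT and at 42.5 and 39.2 in clone 1 (0.31 ± 0.05, limma adjusted p = 0.00826). Repair genes rose too, Polk by 0.59 and Ercc5 by 0.45. Psrc1, Dcxr and Gtse1, members with the smallest adjusted p after Plk2, rose by 0.53, 0.97 and 0.45 (limma adjusted p = 0.00335, 0.00372 and 0.00415). Bax, Ddb2, Rrm2b, Sesn1 and Pmaip1 had log2 fold changes of -0.03 to 0.12 and did not pass the threshold. Of the list, 17 rose without clone 1 replicate 2, 13 without replicate 1, 23 without WT replicate 2 and 23 after rescaling, and 0 fell in any of these. Ptprv, a gene induced by p53 in mouse cells, was not on the list and was chosen after its values were seen. It was at 0.225 to 0.352 FPKM in WT and at 1.91 and 3.62 in clone 1 (1.54 ± 0.17). Its WT mean of 0.263 FPKM was below the filter, so it was tested only through its clone 1 values. It is therefore not read as support for the list.

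**Figure D2:**
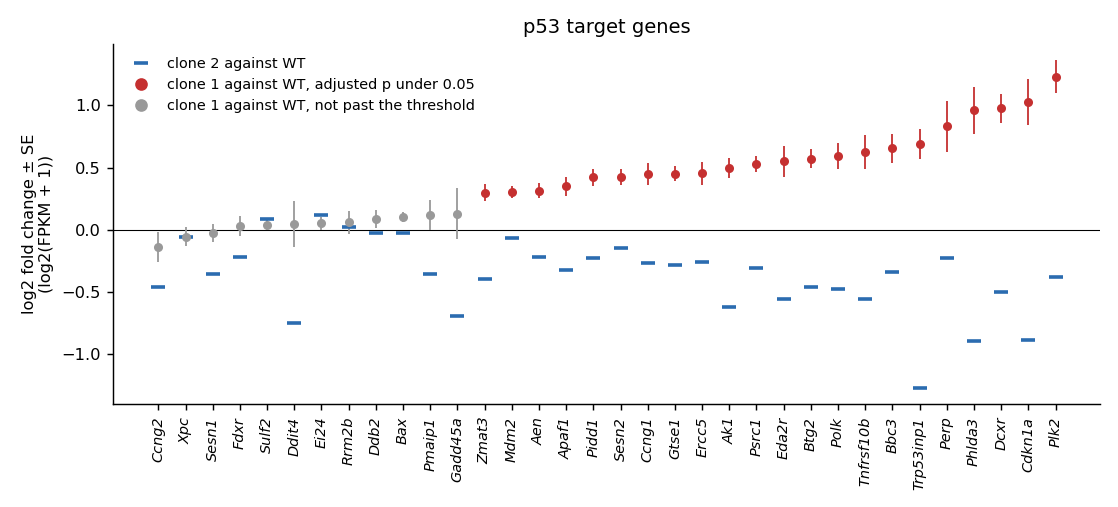
Log2 fold change against WT of 34 tested p53 target genes: circles give clone 1 with its SE, red where the limma adjusted p was under 0.05, and blue dashes give clone 2. The 22 red members ran from 0.30 for Zmat3 to 1.23 for Plk2.

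The p53 element, a pair of short repeats with at most 13 bases between them that was searched on both strands, was found in the 250 bases before the start of 0.06% of all RefSeq promoters, or 21 of 32851. Of the 38 promoters of 26 matched p53 targets, 1 held it, and single repeats were found in 23.68% of them, in 17.86% of the 28 promoters of called targets, in 5.8% of those of tested genes and in 7.13% of all promoters. The promoter with the match belongs to the upstream start of Cdkn1a and is shown for that reason. Capitals mark the stretch that matched the search pattern, with its spacer. A match is not evidence of binding, the search misses sites that depart from the pattern, and which bases p53 binds here was not tested.
Cdkn1a, chr17:29090729-29090978, plus strand: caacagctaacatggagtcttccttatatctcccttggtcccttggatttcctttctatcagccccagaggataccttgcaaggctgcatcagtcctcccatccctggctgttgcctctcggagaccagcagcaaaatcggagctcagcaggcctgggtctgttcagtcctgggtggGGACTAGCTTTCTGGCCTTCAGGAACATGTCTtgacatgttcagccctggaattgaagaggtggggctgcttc

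Part of the neural progenitor list fell. Among 28 tested, 15 fell, 1 rose and 12 did not pass, Sox2 included, and the median was -0.29. Ptn, a secreted growth factor of radial glia, was at 229, 193, 227 and 228 FPKM in WT and at 123 and 122 in clone 1 (log2 fold change -0.84 ± 0.08, limma adjusted p = 0.00162). Sox21, a progenitor transcription factor, was at 46.4, 36.3, 46.1 and 43.6 FPKM in WT and at 22.3 and 22.5 in clone 1 (-0.91 ± 0.10, limma adjusted p = 0.00282). Nr2f2, a nuclear receptor, was at 11.4 to 12.3 FPKM in WT and at 6.14 and 6.11 in clone 1 (-0.84 ± 0.06, limma adjusted p = 0.000359). The clone 1 libraries were close to each other and below all WT libraries in these 3 genes. Sox1, a definitive neural marker, was at 21 to 23 FPKM in WT and at 14.8 and 14.5 in clone 1 (-0.55 ± 0.08), and Nes fell by 0.45. The gene that rose was Zic2, from 46.9 to 57.4 FPKM in WT to 74.0 and 69.9 in clone 1. The calls were 5 lower and 0 higher without clone 1 replicate 2, 15 and 0 without replicate 1, and 13 and 1 after rescaling.

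Some genes of neuronal commitment rose. Among 22 tested genes 6 rose and 2 fell around a median of 0.10. Neurog2, a proneural factor, was at 2.71, 6.91, 3.25 and 3.06 FPKM in WT and at 12.2 and 10.1 in clone 1 (log2 fold change 1.35 ± 0.35, limma adjusted p = 0.0493). WT replicate 2 stood apart from the other WT libraries, and the gene did not pass the threshold without clone 1 replicate 2 (limma adjusted p = 0.138) or replicate 1 (0.127). Neurod1, a later factor of the same family, was at 0.537 to 0.904 FPKM in WT and at 2.44 and 1.48 in clone 1 (0.80 ± 0.15). Its WT mean of 0.678 FPKM was below the filter, so it was tested only through its clone 1 values. Its place among the 6 that rose is therefore not read as support. Gadd45g, which is induced in cells leaving the progenitor state, was at 3.22 to 4.04 FPKM in WT and at 7.14 and 6.65 in clone 1 (0.78 ± 0.10, limma adjusted p = 0.00415). Cntn2, Srrm4 and Gap43 rose by 0.77, 0.43 and 0.44, whereas Nefm and Elavl2 fell by 0.46 and 0.36. With clone 1 replicate 2 left out, 3 rose and 0 fell.

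Notch signalling, which holds progenitors back from neurogenesis, had 30 tested genes, of which 6 fell and 2 rose around a median of -0.08. Hes1, an effector of the pathway, was at 33.7, 33.9, 35.9 and 35.9 FPKM in WT and at 25.5 and 26.9 in clone 1 (log2 fold change -0.40 ± 0.05, limma adjusted p = 0.00372). Hes3, a related repressor, was at 8.74 to 13.9 FPKM in WT and at 4.36 and 5.47 in clone 1 (-1.14 ± 0.20, limma adjusted p = 0.014). Lfng, a glycosyltransferase that modifies Notch receptors, was at 44.5 to 54.0 FPKM in WT and at 29.3 and 31.7 in clone 1 (-0.67 ± 0.09). The protease Adam10, the ligand Jag1 and the receptor Notch4 also fell. The inhibitory ligand Dll3, at 4.26 to 4.89 FPKM in WT and 7.80 and 7.60 in clone 1, and Dtx1, at 3.97 to 6.51 and 11.4 and 9.02, were the members that rose, by 0.64 and 0.96. The fit lacking clone 1 replicate 2 called 1 higher and 2 lower.

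Imprinted genes, which are expressed from 1 parental allele under the control of allele-specific DNA methylation, changed in both directions. Among 37 tested 10 rose and 15 fell, and the median log2 fold change was -0.14. Grb10, a growth-restraining adaptor of insulin and IGF receptors (ENSMUSG00000020176, chromosome 11, 11930508 to 12038683, minus strand), was at 76.7, 77.9, 75.6 and 76.0 FPKM in WT and at 14.6 and 9.89 in clone 1. Clone 1 was at 16.0% of the WT mean, the WT libraries differed by little, and the log2 fold change was -2.57 ± 0.12 (SE, limma adjusted p = 0.00011). Clone 2 had a mean of 82.8 FPKM. Nnat, a small membrane protein of developing brain (ENSMUSG00000067786, chromosome 2, 157560078 to 157562522, plus strand), was at 47.4, 44.3, 45.8 and 47.1 FPKM in WT and at 226 and 231 in clone 1. It was 4.96-fold higher (log2 fold change 2.29 ± 0.04, limma adjusted p = 2.2e-08), and clone 2 had a mean of 165 FPKM. Blcap, in whose intron Nnat lies, fell by 0.40. Whether the authors' counting used strand is not stated in these sources, so reads of overlapping or antisense genes cannot be told apart. This limit covers Nnat and Blcap here, and Zrsr1 with Commd1 and Mcts2 with H13 below.

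Neighbouring imprinted genes moved in patterns that differed between loci. At the Dlk1 and Meg3 locus on chromosome 12, the maternally expressed RNAs Meg3, Rian and Mirg rose by 0.61, 0.30 and 0.43 and the paternally expressed Dlk1 fell by 0.75. Meg3 was at 138, 151, 141 and 138 FPKM in WT and at 224 and 212 in clone 1 (limma adjusted p = 0.000359). At the Mest locus on chromosome 6, Mest was at 311, 260, 306 and 301 FPKM in WT and at 141 and 128 in clone 1 (log2 fold change -1.13 ± 0.08, limma adjusted p = 0.000454), and its neighbour Copg2 was at 97.2 to 106 and at 69.0 and 70.5 (-0.55 ± 0.05, limma adjusted p = 0.000618). At the Peg10 cluster Sgce and Asb4 fell by 0.48 and 0.78. Peg10 was at 59.0 to 83.5 FPKM in WT and at 30.6 and 26.4 in clone 1, which do not overlap, but its SE was 1.61 and it did not pass the threshold (limma adjusted p = 0.626). The spread shared in the fit includes clone 2, where Peg10 was listed at 0 in one library and was at 60.1 FPKM in the other. Fitted without clone 2, or without the library that lists it at 0, Peg10 passed the threshold with the same log2 fold change of -1.32 ± 0.14 (limma adjusted p = 0.00757 and 0.00763). On chromosome 7, Phlda2 and Slc22a18 rose by 1.09 and 0.63, whereas Cdkn1c fell by 0.32. Zrsr1 rose by 0.51 and Commd1, which surrounds it, fell by 0.22; Mcts2 rose by 0.20 and H13, which surrounds it, fell by 0.44. When clone 1 replicate 2 was left out, 6 members rose and 5 fell, and after rescaling 10 rose and 12 fell.

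**Figure D3:**
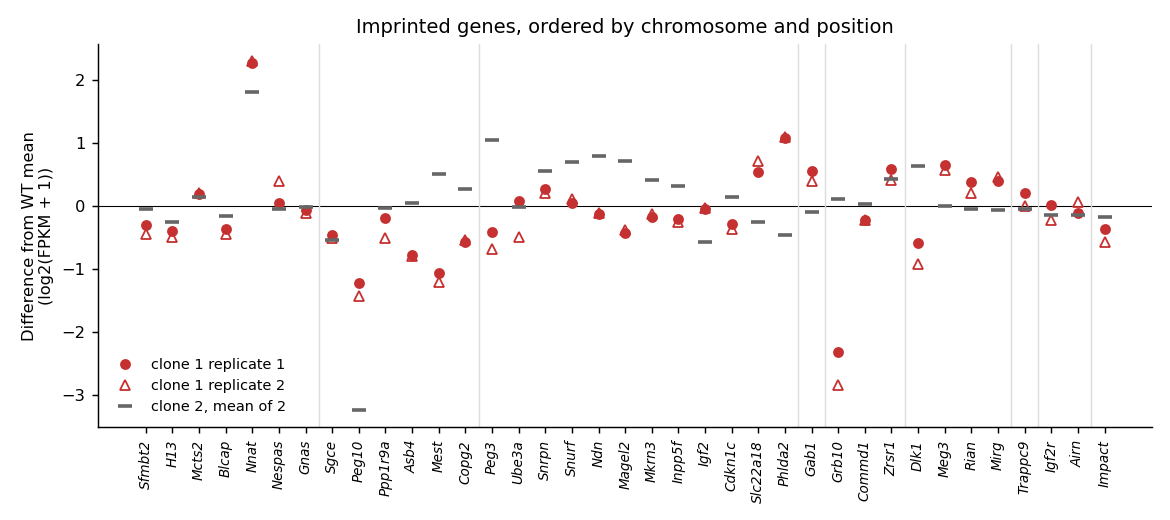
Difference of each clone 1 library from the WT mean, on the log2(FPKM + 1) scale, for 37 tested imprinted genes in genome order, with the clone 2 mean as a grey dash; vertical lines separate chromosomes. Both clone 1 libraries placed Nnat near 2.29 and Grb10 below -2, while clone 2 was at 0.11 for Grb10. The clone 2 dash of Peg10 includes a library listed at 0.

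Secreted and matrix proteins were among the genes that fell most. Ccn2, known as CTGF and a target of YAP and TEAD, was at 7.71, 5.30, 7.75 and 7.02 FPKM in WT and at 1.13 and 1.35 in clone 1 (log2 fold change -1.82 ± 0.13, limma adjusted p = 0.000304). Of 20 tested YAP and TEAD targets limma called 5 lower and 0 higher around a median of -0.18 (9 and 0 at an unadjusted p under 0.05, and 1 and 0 called without clone 1 replicate 2). The others that fell, Amotl2, Axl, Fstl1 and Nuak2, did so by 0.20 to 0.37. Thbs1, the matrix protein thrombospondin, was at 89.5, 79.3, 90.1 and 78.7 FPKM in WT and at 33.8 and 27.0 in clone 1 (-1.45 ± 0.09, limma adjusted p = 0.000271). Igfbp5, which binds insulin-like growth factors, was at 13.1 to 19.9 FPKM in WT and at 5.02 and 4.78 in clone 1 (-1.57 ± 0.16, limma adjusted p = 0.00335). In these 3 genes both clone 1 libraries lay below all WT libraries. Of 25 tested matrix genes 6 fell, including Spon1 (by 0.96) and Col1a2 (by 0.67), and Spock1 rose by 0.86. In the fit lacking clone 1 replicate 2, 3 fell and 1 rose. The serine protease gene Prss23 fell from 6.55 to 9.30 FPKM in WT to 1.58 and 2.12 in clone 1 (-1.72 ± 0.13). Prss23os, chosen after its values were seen, lies within Prss23 on the other strand. It was at 16.5 to 22.0 FPKM in WT and at 4.24 and 4.68 in clone 1. Reads of Prss23os and Prss23 cannot be told apart unless the counting used strand, so this is not read as a separate change.

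Axon guidance genes had 33 tested members, of which 10 fell and 1 rose around a median of -0.17. With clone 1 replicate 2 left out, 4 fell and 0 rose. The ephrins Efnb3, Efnb1 and Efna2 fell by 0.95, 0.70 and 0.69, and the semaphorins Sema3c, Sema6d and Sema5a by 0.80, 0.64 and 0.55. Nrp2, a semaphorin receptor, was at 5.54 to 8.8 FPKM in WT and at 3.31 and 3.20 in clone 1. Robo3, a guidance receptor of commissural axons, was the member that rose, from 5.93, 10.0, 5.30 and 6.41 FPKM in WT to 21.4 and 23.8 in clone 1 (log2 fold change 1.61 ± 0.29, limma adjusted p = 0.0178, and 0.0975 without clone 1 replicate 2). WT replicate 2 was the highest WT library for Robo3, and the groups did not overlap.

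The remaining genes with the largest changes had varied roles. Gpx3, a secreted glutathione peroxidase, was at 45.2, 44.1, 54.1 and 39.9 FPKM in WT and at 129 and 176 in clone 1 (log2 fold change 1.70 ± 0.15, limma adjusted p = 0.00335). The metal-binding metallothioneins Mt1 and Mt2 rose by 0.92 and 1.00. Ndufa4l2, a hypoxia-induced mitochondrial gene, was at 2.34 to 5.11 FPKM in WT and at 9.33 and 8.21 in clone 1 (1.24 ± 0.25, limma adjusted p = 0.0203, and 0.0907 without clone 1 replicate 2). The forkhead gene Foxb1 fell from 5.16 to 9.32 FPKM in WT to 1.505 and 2.09 in clone 1 (-1.63 ± 0.23), and the helix-loop-helix gene Tal2 fell by 1.43. Adgrg1, an adhesion receptor, Chrm4, a muscarinic receptor, and Ndnf, a secreted neurotrophic factor, fell by 1.33, 1.26 and 1.41. The motor protein gene Myo5b and the ubiquitin-conjugating gene Ube2ql1 fell by 1.58 and 1.24. In the absence of clone 1 replicate 2, Gpx3, Foxb1 and Chrm4 passed the threshold, and limma gave an adjusted p of 0.0547 for Tal2, 0.0633 for Ndnf, 0.0634 for Ube2ql1, 0.0683 for Adgrg1, 0.0894 for Mt1, 0.098 for Myo5b and 0.11 for Mt2. Without clone 1 replicate 1 the adjusted p was 0.0619 for both Mt2 and Ndufa4l2. Regional transcription factors, of which 23 were tested, had 6 that fell (Gbx2, Otx1, Dmbx1, Lhx2, En1 and Nkx6-1) and 1 that rose (Lmx1b), around a median of -0.21. When clone 1 replicate 2 was left out, 1 fell and 1 rose.

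Some genes of proliferation and RNA processing fell by small amounts. Of 40 tested genes of DNA replication and mitosis 17 fell, 1 rose and 22 did not pass, around a median of -0.17. Pcna, the replication clamp, was at 227, 214, 217 and 222 FPKM in WT and at 178 and 181 in clone 1 (log2 fold change -0.29 ± 0.03, limma adjusted p = 0.00314). Cdc6, Tyms and Rrm2, which license origins and make nucleotides, fell by 0.39, 0.42 and 0.38, and Mcm2, Mcm4, Mcm5, Mcm6 and Mcm7 of the replicative helicase fell by 0.17 to 0.23. Cdc20, a mitotic activator, rose by 0.20. After rescaling 11 fell and 2 rose, and without clone 1 replicate 2, 6 fell and 1 rose. Of 32 tested splicing regulators 20 did not pass and 11 fell, among them Khdrbs3 (by 0.61), Tra2b and Srsf7, and Esrp1 rose, around a median of -0.14. After rescaling 4 fell and 2 rose, and without clone 1 replicate 2, 1 fell and 1 rose. Of 13 tested genes around LIN28 and let-7, Hmga2, Igf2bp3 and Lin28b fell by 0.49, 0.29 and 0.24, and 1 of the 3 was called without clone 1 replicate 2. Of 38 tested Polycomb and Trithorax genes 7 fell, including Ezh2 (by 0.20), and Cbx7 and Phc1 rose by 0.68 and 0.38. Over all genes 11.4% fell and 4.29% rose. After rescaling 4 fell and 4 rose, and without clone 1 replicate 2, 0 fell and 2 rose.

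The counts of several groups of basic cell function changed with the scaling of the libraries. Of 36 proteasome subunits limma called 12 lower, by 0.12 to 0.24, and 0 higher (21 and 0 at an unadjusted p under 0.05). After rescaling 1 was lower, and without clone 1 replicate 2, 3 were. Of 20 cytosolic chaperones 6 fell and 1 rose, and after rescaling 3 fell and 2 rose. Of 80 nuclear genes of oxidative phosphorylation limma called 2 higher and 0 lower (18 and 2 at an unadjusted p under 0.05), and 13 higher after rescaling. Of 29 antioxidant genes 4 rose and 5 fell, and after rescaling 5 rose and 0 fell. Genes encoded in mitochondrial DNA rose by 0.10 to 0.17 in 5 of 13, and 5 were also called after rescaling, with mt-Co1 at 2071 to 2125 FPKM in WT and at 2307 and 2261 in clone 1. Of 81 ribosomal protein genes limma called 4 higher and 0 lower (23 and 1 at an unadjusted p under 0.05). Of 31 genes of the amino acid and endoplasmic reticulum stress response 7 fell, chiefly chaperones such as Hspa5 and Hsp90b1 (by 0.23 and 0.21), and Gars rose; after rescaling 4 fell and 3 rose. Among 22 interferon and antigen presentation genes Tap1, Tap2, Bst2 and Ly6e rose by 0.29 to 0.92, and Ifitm1 and Ifitm3 fell by 0.93 and 0.33. In the fit lacking clone 1 replicate 2, the chaperone, mitochondrial and interferon lists had 1 call each, and the ribosomal and oxidative phosphorylation lists had 0. Of 33 glycolysis and hypoxia genes 3 rose and 1 fell, and of 29 cholesterol synthesis genes 1 rose and 1 fell.

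**Figure D4:**
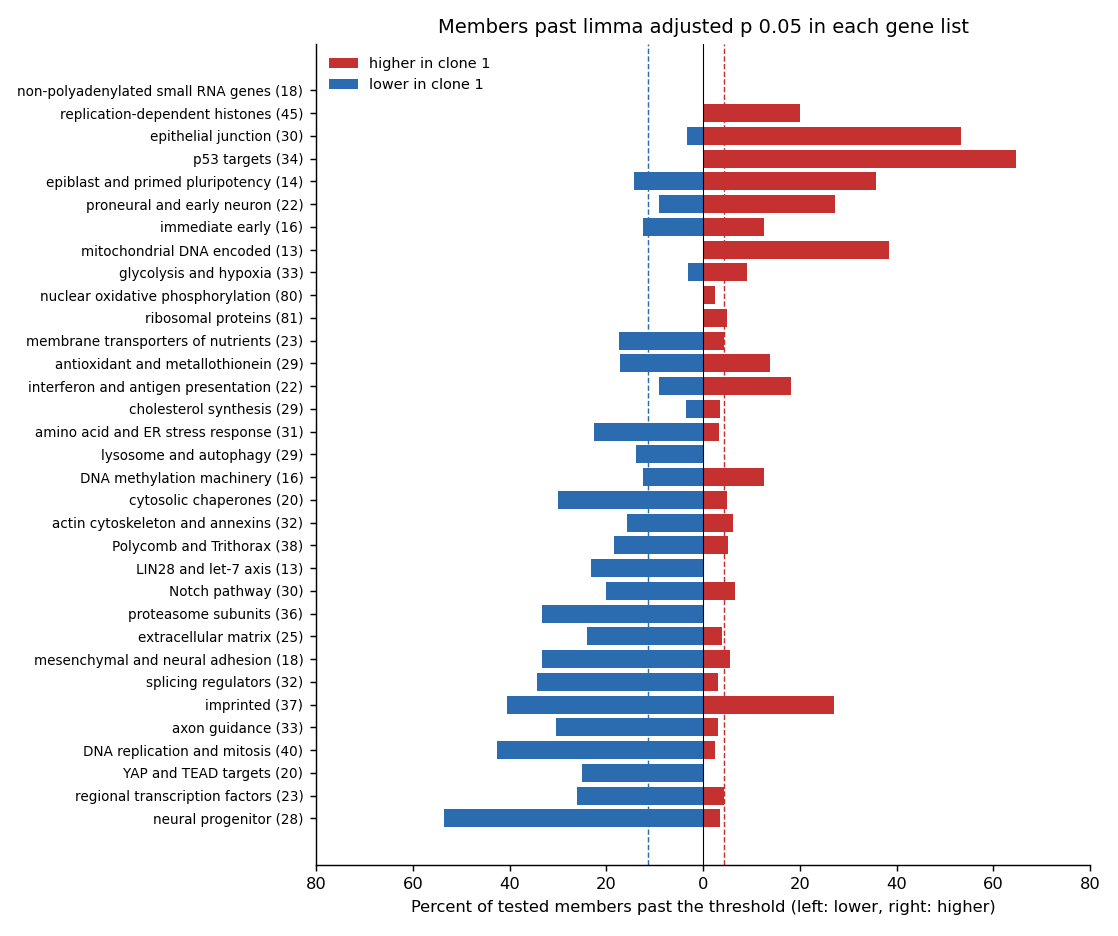
Percent of tested members called higher (red, to the right) or lower (blue, to the left) in clone 1 by limma for each list with at least 10 tested members, ordered by median change, with the number tested in brackets and dashed lines at 4.29% and 11.4%, the shares of all genes. The p53 and epithelial junction lists reached 22 of 34 and 16 of 30 on the right, and the neural progenitor list reached 15 of 28 on the left.

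The 2 clone 1 libraries differed most in RNA that lacks a poly(A) tail. The small RNAs Rn7sk, Rmrp and Rpph1 were at 250.2, 112 and 371 FPKM in replicate 2 and at 8.05, 1.58 and 3.02 in replicate 1, against WT ranges of 8.40 to 28.4, 1.03 to 7.62 and 3.02 to 22.8. Of 18 tested small RNA genes 17 were higher in replicate 2 than in replicate 1, with a median difference of 2.86 on the log2 scale, against a median of -0.08 over all genes. Against WT, 0 of the 18 passed the limma threshold and 1 reached an unadjusted p under 0.05. Of 45 tested replication-dependent histone genes 44 were higher in replicate 2 than in replicate 1, with a median difference of 0.86. Histone genes counted as 9 higher and 0 lower against WT and a median of 0.61, but without replicate 2 as 0 and 0 with a median of 0.16. Hist1h3a was at 1.64 to 2.16 FPKM in WT and at 3.01 and 5.02 in clone 1 (limma adjusted p = 0.0184, and 0.122 without replicate 2).

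**Figure D5:**
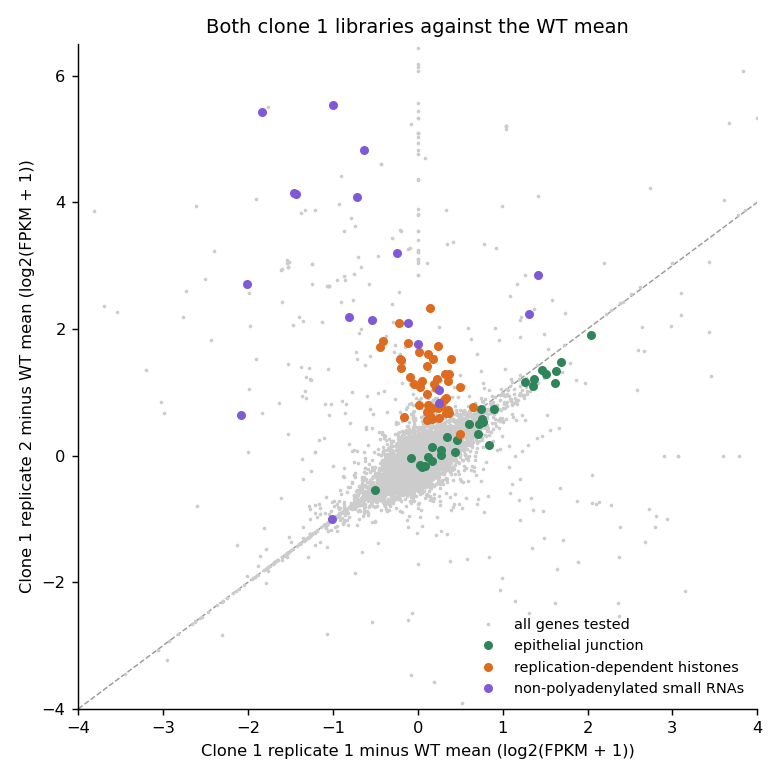
Difference of clone 1 replicate 1 (x) and replicate 2 (y) from the WT mean on the log2(FPKM + 1) scale for all tested genes (grey), with epithelial, histone and small RNA genes coloured and a dashed line at equality; 53 genes lie outside the axes. Above the line lie 44 of 45 histones and 17 of 18 small RNAs, with median differences of 0.86 and 2.86 between the replicates.

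Most of the genome showed no regional shift. The median log2 fold change per chromosome lay between -0.09 and -0.03 for the autosomes and X, and 99.4% of 10934 windows of 40 neighbouring protein-coding genes had a median within 0.15 of that of all genes. Apart from a histone cluster on chromosome 13, the highest window was on chromosome 4 from Plekhf2 to Ufl1 (10988662 to 25281821), with a median of 0.21, 35 of 40 genes above 0 and 14 called higher. Esrp1 and Trp53inp1 lie within these coordinates. The Y-linked genes Eif2s3y, Uty and Ddx3y, chosen after their values were seen, were higher in clone 1. Eif2s3y was at 23.1 to 25.1 FPKM in WT and at 60.4 and 50.3 in clone 1 (1.15 ± 0.08, limma adjusted p = 0.000213), Uty at 5.06 to 5.69 and at 13.9 and 11.4, and Ddx3y at 5.24 to 6.18 and at 14.0 and 11.1. In clone 2 these genes were at 0.184 FPKM or less.

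Single genes with an on-or-off or sharply stepped pattern were also singled out after their values were seen. Thumpd1, an RNA acetylation adaptor on chromosome 7 (119715093 to 119720798, minus strand), was at 41.2, 42.9, 41.7 and 41.5 FPKM in WT and at 20.9 and 20.8 in clone 1, 49.9% of the WT mean (log2 fold change -0.97 ± 0.04, limma adjusted p = 5.51e-06). Clone 2 was at 43.2 and 44.6 FPKM. The neighbouring genes Gprc5b and Eri2 had log2 fold changes of -0.43 and -0.20 (limma adjusted p = 0.0107 and 0.0589). CAAA01147332.1, on an unplaced scaffold, was at 19.08 to 27.3 FPKM in WT. The clone 1 libraries list it at 0, and the clone 2 libraries had 0 and 0.395 FPKM. Mir92-2, a microRNA gene on X (52741838 to 52741928), was listed at 138 FPKM in both clone 1 libraries and at 0 in all others. A value of exactly 0 in such short or unplaced genes can be a failed estimate, so no fold is given for either.

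Clone 2 carries the same genotype. The comparisons of the clones with WT use the same WT libraries, so their values are given side by side. Of the 623 genes called higher in clone 1, 19 were called higher and 212 lower in clone 2 against WT. Of the 1654 called lower in clone 1, 56 were called lower and 432 higher in clone 2. The shares of all genes called in clone 2 against WT are not given here, so nothing is read from these counts. The direct limma contrast between the clones called 5820 genes (40.1%), and 3060 without clone 2 replicate 2. It called 2080 of the 2277 genes that were called in clone 1 against WT (91.3%), but the same clone 1 libraries chose those genes, so nothing is read from that share. Cdh1 had a mean of 22.2 FPKM in clone 1, 7.39 in WT and 4.50 in clone 2, Cdkn1a 66.2, 32.3 and 16.9, Pou5f1 50.5, 22.6 and 12.6, and Ccn2 1.24, 6.95 and 15.6. In these 4 genes WT lay between the clones, and the clones differed (limma adjusted p = 0.000665, 0.00116, 0.00204 and 2.3e-05). Lhx5, at 1.05 FPKM in clone 1 and 1.58 in clone 2, was low in both, and the clones did not differ beyond the threshold (limma adjusted p = 0.0874). Nnat was higher than WT in both, with log2 fold changes of 2.29 and 1.81. Gpx3 was also higher than WT in both (1.70 and 0.78, limma adjusted p = 0.0249 in clone 2). Thbs1 was lower than WT in both (-1.45 and -0.54, limma adjusted p = 0.01385 in clone 2).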

How the data were processed

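RNA was extracted with Tripure and prepared with a TruSeq v2 kit, per the labels' protocols. The submitters' processing notes name FastQC, SAMtools, TopHat2, Cufflinks, DESeq2 and the builds GRCm38 and mm10, without versions or roles. The authors deposited 1 table with an FPKM value per gene and library, per the file headers. Per the file headers it also holds the authors' mean FPKM and mean read counts (a signal of unstated scaling) for WT and for the pooled clones, and a fold change and p-value between these, none used for results.

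Null columns name the clone and a replicate number and were mapped to the clone. Genes with a mean of at least 1 FPKM over the 6 libraries of WT and clone 1 were kept. A gene below 1 FPKM in 1 group could thus be tested only through its values in the other. Values were fitted as log2(FPKM + 1) with limma 3.58.1 in R 4.3.3, with 3 groups over all 8 libraries and trended, robust moderation, and p-values were adjusted by Benjamini-Hochberg over all 14520 genes at a threshold of 0.05. The unit is not a count, so no count model was used, and read depth per library is unknown. The script was tested on simulated data. GENCODE M21 (GRCm38) gave coordinates for 45900 of 46406 identifiers, and 45814 had a symbol. Promoters came from RefSeq (GRCm38.p6).

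Genes named by rule were the markers, Lhx5, the 15 highest and 15 lowest called protein-coding genes with a standard symbol whose clone 1 libraries both lay outside the WT range and which differed by at least 0.5 (log2) from the WT mean in clone 1 replicate 1, and up to 4 called members of each list with the smallest adjusted p. Other list members named were chosen after their values were seen. The comparison, the 44 lists and their members were chosen with earlier results of these data known. Alternatives were other pseudocounts, filters and scalings, a fit of 6 libraries, plain moderation, a replicate block and leaving out each library. The lists without WT replicate 2, the fits without a clone 2 library and the contrast of the clones without a WT library were added after seeing the data. A few genes that entered the counts are not reported here by name.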

Additional observations from a re-analysis of the deposited data

Results flagged for a closer look

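Clone 1 and clone 2 carry the same genotype, and their difference was tested directly with limma. Of the 31 genes named by size or as markers, with Lhx5, 30 differed between the clones, as did 109 of the 118 genes named as list members only. Most of these genes were chosen for their change in the same clone 1 libraries, so nothing is read from the shares. The values below are clone 1 minus clone 2 on the log2(FPKM + 1) scale. Among genes of epithelial junctions the difference was 2.075 for Cdh1, 2.796 for Cldn3, 1.283 for Cldn6, 2.028 for Cldn7, 1.796 for Epcam, 2.072 for Esrp1, 1.443 for St14 and 1.431 for Crb3. Among stem cell, germline, p53 and proneural genes it was 0.919 for Dnmt3b, 1.910 for Sycp3, 1.605 for Plk2 and 2.704 for Neurog2. The other genes higher in clone 1 than in WT differed by 0.471 for Nnat, 0.924 for Gpx3, 3.078 for Robo3 and 2.402 for Ndufa4l2. Of the genes lower in clone 1 than in WT, the secreted, matrix and growth factor signalling genes differed by -2.893 for Ccn2, -2.145 for Prss23, -2.347 for Igfbp5, -0.906 for Thbs1, -1.888 for Ndnf and -2.682 for Grb10. The transcription factors differed by -1.967 for Foxb1, -2.161 for Tal2 and -1.771 for Hes3. The receptors Adgrg1 and Chrm4 differed by -2.532 and -1.673, and Myo5b and Ube2ql1 by -2.641 and -2.426.

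In 3 of these genes WT replicate 2 stood apart from the other WT libraries by Dixon's test on 4 samples, on the side of clone 1. It had 6.912 FPKM for Neurog2, 2.728 for Cldn7 and 8.433 for Chrm4. Chance flags about 1 in 20 groups.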

How the results depend on the processing

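Lhx5 kept its direction and its call in every alternative run, with a log2 fold change of -2.96 to -3.87. The calls in clone 1 against WT, 623 higher and 1654 lower, became 976 and 975 after rescaling by the median of ratios. Without a filter 1050 genes were lower. Leaving out 1 of the 8 libraries gave 192 to 887 higher and 283 to 2661 lower genes, with the fewest of both without clone 1 replicate 2. Between the clones 5820 genes differed, and 3060 (without clone 2 replicate 2) to 5934 with 1 library left out. Leaving out the clone 2 libraries, and WT libraries for this contrast, was added after seeing the data. With the replicate block 19 genes were higher, 17 were lower and 3048 differed between the clones. The numbers share no stated origin, so same-numbered libraries were not treated as paired. The correlations of their deviations were 0.021 and -0.047. With 2 clone 1 libraries these deviations are mirror images of each other, so the correlations cannot exclude a shared batch. No gene named by rule changed direction. List medians did: rescaling turned those of DNA methylation, cholesterol synthesis, the stress response, chaperones and lysosome genes from below to above 0, and leaving out clone 1 replicate 2 did so for Notch (-0.08 to 0.04), matrix (-0.10 to 0.02) and Polycomb (-0.08 to 0.03) genes, among others. Of 148 genes called and named by rule, 64 stayed called without clone 1 replicate 2, 123 without clone 1 replicate 1, 146 without WT replicate 2, 110 to 117 without another WT library, 142 without either clone 2 library, 134 after rescaling and 11 with the replicate block. Leaving out a library also leaves fewer samples. The cause of the other shifts was not tested. With read depth unknown, no counting interval can be given for low FPKM values.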

Other observations

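Further lists showed few calls, to be read beside the 4.29% of all genes that rose and the 11.4% that fell. Of 29 tested lysosome and autophagy genes 4 fell and 0 rose by limma (9 lower and 1 higher at an unadjusted p under 0.05), around a median of -0.03. Of 23 tested nutrient transporters 4 fell and 1 rose, and after rescaling 2 fell and 5 rose. Tfrc, the transferrin receptor for iron uptake, fell by 0.69. Of 32 tested genes of the actin cytoskeleton and annexins 5 fell and 2 rose, around a median of -0.06, and without clone 1 replicate 2, 2 fell and 2 rose. Of 16 tested immediate early genes 2 fell and 2 rose. Egr1, a growth factor response gene, rose by 0.75, and Mycn, a MYC family gene of progenitors, fell by 0.42. Of 22 clustered beta protocadherins 1 was tested, and it did not pass the limma threshold or an unadjusted p under 0.05.

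Wnt1, a signalling gene of the midbrain that was chosen after its values were seen, was at 104, 85.0, 101 and 102 FPKM in WT, at 43.4 and 50.9 in clone 1 and at 165 and 177 in clone 2. Both clone 1 libraries lay below all WT libraries, and both clone 2 libraries above them.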
